A study of Homo sapiens and Mus musculus with 12 samples.

Results

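The integrated stress response and the unfolded protein response were examined through 47 genes in NK cells that had lost EHMT2, or in which it was inhibited. EHMT2 (G9a) is a histone methyltransferase that places the repressive H3K9me2 mark. The members were taken by symbol from the human count table and, in title case or under an older symbol, from the mouse table. They fall into 7 roles, namely transcription factors, stress effectors and feedback genes, amino acid synthesis and one-carbon enzymes, amino acid transporters, tRNA synthetases, stress sensors, and factors of folding, degradation and signalling in the endoplasmic reticulum (ER). Of the 47 symbols, 42 were listed among the 18304 rows of the human table and 39 of these passed the filter on low counts. NUPR1, CHAC1, STC2, PHGDH and CBS were not analysed here in human cells, and VLDLR, a lipoprotein receptor (1 to 9 counts a library), ASNS (0 to 3) and ALDH1L2, a mitochondrial folate enzyme (1 to 20), were listed but too low to be tested. All 47 were listed among the 22021 rows of the mouse table, 4 of them under older symbols, and 43 were tested. Vldlr (0 to 12 counts a library), Aldh1l2 (0 to 4) and the transsulfuration enzymes Cth (2 to 8) and Cbs (0 to 6) were too low in mouse cells. The filter removes genes that are low in both groups, so the genes tested are not all members.

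RNA-seq counts were available for 12 libraries in 4 groups of 3. NK92MI, an established human NK cell line, was treated with BIX-01294, an inhibitor of the EHMT2 methyltransferase, or with DMSO as vehicle. For NK92MI cultures the dose is stated as 0.25 μM for 5 days, with none given for the RNA-seq itself. Splenic NK cells came from WT mice, which were Ehmt2 flox/flox, and from KO mice, which were Ehmt2 flox/flox and in addition carried Ncr1-iCre, all of the C57BL/6J background and between 8 and 12 weeks of age. Ncr1 encodes the NK cell receptor NKp46, so that Cre acts in NKp46+ cells and the floxed gene stays intact in cells of other kinds. The titles of the KO samples name EHMT2-KO, whereas their genotype field reads Ezh2-KO, and the titles were followed. The BIX-01294 libraries are numbered 1 to 3. The 3 control columns are not tied to the numbered DMSO samples and are named a, b and c here. Nothing states that the NK92MI libraries came from separate cultures, so their p-values measure only the spread between these libraries.

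The response is built on the phosphorylation of the translation factor eIF2α by kinases that sense different stresses. EIF2AK3 (PERK) senses unfolded proteins in the ER and EIF2AK4 (GCN2) senses uncharged tRNA. When eIF2α is phosphorylated, general translation falls while translation of the ATF4 mRNA rises, and ATF4 then acts on genes of amino acid synthesis, amino acid transport and tRNA charging. ERN1 (IRE1α), which splices the XBP1 mRNA, and ATF6, which is cleaved to release a transcription factor, are the other ER sensors, and both act on chaperones and on ER-associated degradation. Counts per gene measure neither phosphorylation, nor translation, nor the splicing of XBP1.

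The targeted gene was read first. EHMT2 was lower with BIX-01294 (log2 fold change −0.58, standard error 0.08, adjusted p = 0.000101 by edgeR's quasi-likelihood test with Benjamini-Hochberg adjustment, as are all adjusted p-values below unless another tool is named). Ehmt2 was lower in KO NK cells (log2 fold change −0.91, standard error 0.10, adjusted p = 0.0162), and each KO library was below each WT library. Total counts ranged from 16579469 to 17165446 in the human libraries and from 25891680 (WT replicate 2) to 37438868 in the mouse libraries. The biological coefficient of variation was 7.55% in the human and 18.2% in the mouse comparison, so the human effects were measured with less error. Levels are given as TMM-normalized CPM, the counts of a gene scaled to the size of its library. On this scale Ehmt2 was still counted at 171, 143 and 137 CPM in KO replicates 1 to 3, against 275, 284 and 285.5 CPM in WT replicates 1 to 3. A gene was called where its adjusted p was under 0.05, with the adjustment made over all genes tested.

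BIX-01294 treatment moved stress genes in both directions. The feedback phosphatase subunit PPP1R15A, the transcription factors DDIT3 and ATF3, the cystine and glutamine transporters SLC7A11 and SLC38A2 and the sensors ERN1, EIF2AK4 and EIF2AK3 rose. The serine synthesis enzymes PSAT1 and PSPH, the ER factors SDF2L1 and XBP1, the pseudokinase TRIB3 and ATF4 itself fell. Of the 39 members tested, 12 were called higher, against 18.4% of the 12727 genes tested, and 11 were called lower, against 18.4%. With the thresholds of the study, an adjusted p under 0.01 and an absolute log2 fold change over 0.5, 8 members were higher (6.24% of all genes) and 5 lower (5.43%). In either direction 36.9% of all genes tested were called, the share against which the counts by role below stand. The median log2 fold change was 0.08 over the members and −0.01 over all genes tested. Every treated library lay above every control for 12 members and below for 12. Over the 12727 genes tested this held for 3063 and 3037, so a lack of overlap was common. Of the 23 calls, 15 were kept under each of 12 alternative analyses, and the remaining 8 (CEBPG, SESN2, SHMT2, AARS1, WARS1, SARS1, EIF2AK4 and PDIA4) were lost in at least 1 of them.

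**Figure D1:**
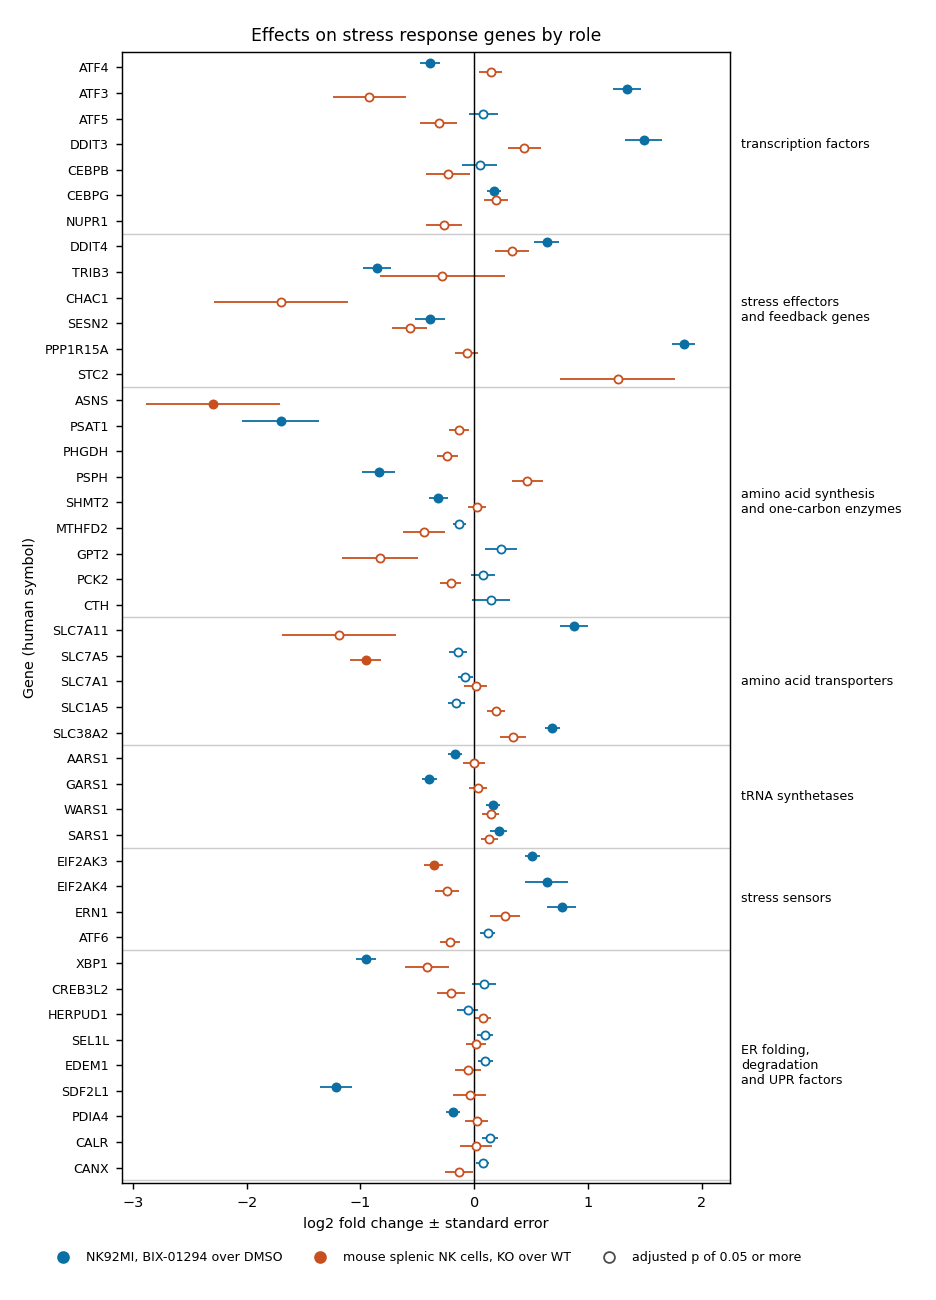
Log2 fold change (x axis) with its standard error for each member tested (y axis, human symbols, grouped by role), in NK92MI cells with BIX-01294 over DMSO (blue) and in mouse splenic NK cells, KO over WT (orange), with filled points for an adjusted p under 0.05. Filled blue points lie on both sides of 0, from PSAT1 at −1.70 to PPP1R15A at 1.84, and the only filled orange points are Asns, Slc7a5 and Eif2ak3, all below 0.

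Short stretches upstream of some of these genes hold letters that are known binding motifs of the response, and they are shown because the genes that hold them moved in different directions. The 250 bases before the RefSeq start site (GRCh38.p14) were searched on both strands for the C/EBP-ATF response element (CARE, TGATGNAA, with N any base), the cyclic AMP response element (CRE, TGACGTCA), the ER stress response element (ERSE, CCAAT and CCACG with 9 bases between them) and ERSE-II (ATTGG and CCACG with 1 base between them). No 2 of these motifs overlapped in the sequences printed. Promoters were matched for 41 of the 47 members by symbol. A CARE was found in 5 of them (12.2%; 3.19% of 27305 promoters), a CRE in 2 (4.88%; 1.77%), an ERSE in 3 (7.32%; 0.0806%) and an ERSE-II in 2 (4.88%; 0.0513%). Among the 9816 promoters of genes tested in NK92MI cells, the shares were 1.43%, 2.94%, 0.143% and 0.122% in the same order. Each sequence below reads 5′ to 3′ on the strand of its gene, with the matched letters in capitals, and where these read as the reverse complement the match is on the other strand. XBP1 and SDF2L1, which fell with BIX-01294, and HERPUD1, which was not called, are shown for the ERSE motifs, PPP1R15A, which had the largest rise of the members tested, for the CRE, and ATF3, AARS1 and ASNS for the CARE.
ATF3, CARE, plus strand, chr1:212565205-212565234: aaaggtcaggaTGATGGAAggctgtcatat
AARS1, CARE, minus strand, chr16:70289675-70289704: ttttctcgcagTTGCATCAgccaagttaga
ASNS, CARE, minus strand, chr7:97872458-97872487: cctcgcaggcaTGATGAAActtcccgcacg
HERPUD1, CARE, plus strand, chr16:56931955-56931984: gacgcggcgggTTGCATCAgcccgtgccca
PPP1R15A, CRE, plus strand, chr19:48872352-48872381: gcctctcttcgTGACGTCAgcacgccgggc
XBP1, ERSE, minus strand, chr22:28800598-28800626: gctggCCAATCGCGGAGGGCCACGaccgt
SDF2L1, ERSE-II, plus strand, chr22:21642105-21642133: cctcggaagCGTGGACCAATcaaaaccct
HERPUD1, ERSE-II, plus strand, chr16:56932016-56932044: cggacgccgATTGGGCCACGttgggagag
Among the members with a CARE that were tested in NK92MI cells, ATF3 rose, AARS1 fell and HERPUD1 was not called. Of the members with a CRE, PPP1R15A rose and CREB3L2 was not called. Of the members with an ERSE or ERSE-II, XBP1 and SDF2L1 fell and CALR, CANX and HERPUD1 were not called. Genes of these pathways outside the members held such motifs too. Among these, PPP1R15B (CARE) and ERO1B (ERSE) were called higher, and IARS1 (CARE) and HSPA5 (ERSE) lower. A match is a description of letters and no evidence of binding, and no factor binding was measured here.

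Among the transcription factors, 3 of 6 tested were called higher and 1 lower (18.4% of all genes in each direction). ATF4 mRNA was counted at 173, 143 and 184 CPM in BIX-01294 replicates 1, 2 and 3, and at 196, 231 and 227 CPM in DMSO libraries a, b and c. All treated libraries were below all controls (log2 fold change −0.39, standard error 0.09, adjusted p = 0.00411). ATF3, a stress-induced factor of the same family, was counted at 23.0, 18.7 and 25.0 CPM with BIX-01294 and at 8.67, 8.48 and 9.11 CPM with DMSO, in the same order of libraries as used from here on. The groups did not overlap and the rise was 2.54-fold (log2 fold change 1.34, standard error 0.13, adjusted p = 3.39e-06). DDIT3 (CHOP), which is linked to cell death under lasting stress, stood at 12.1, 9.29 and 12.5 CPM against 4.02, 3.63 and 4.38 CPM, a rise of 2.81-fold (log2 fold change 1.49, standard error 0.16, adjusted p = 1.22e-05). BIX-01294 replicate 2 was the lowest treated library for ATF4, ATF3 and DDIT3, and it still lay above every control for ATF3 and DDIT3. CEBPG, a partner of ATF4 on composite elements, had a log2 fold change of 0.17 (adjusted p = 0.0482), a call that was lost in 8 of 12 alternatives. ATF5 (0.08) and CEBPB (0.05) did not pass the test, and their libraries overlapped.

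Each of the 4 stress effectors and feedback genes that could be tested changed, 2 upward and 2 downward. PPP1R15A (GADD34), which brings a phosphatase to eIF2α and so closes the response, was counted at 395, 329 and 429 CPM with BIX-01294 and at 103, 120.1 and 98.6 CPM with DMSO. The lowest treated library was well above the highest control, with a rise of 3.58-fold (log2 fold change 1.84, standard error 0.10, adjusted p = 2.26e-08). DDIT4 (REDD1), an inhibitor of mTORC1, stood at 81.9, 67.1 and 88.3 CPM against 45.7, 59.1 and 47.6 CPM (log2 fold change 0.64, standard error 0.11, adjusted p = 0.000543). TRIB3, a pseudokinase that is induced by ATF4 and DDIT3 and restrains them, moved the other way, at 9.01, 9.58 and 11.99 CPM against 17.5, 18.2 and 19.6 CPM. The groups were apart and the level was 1.81-fold lower (log2 fold change −0.85, standard error 0.13, adjusted p = 0.000148). SESN2, a leucine sensor upstream of mTORC1, fell less (log2 fold change −0.39, adjusted p = 0.0313), a call that was lost without DMSO library a, without DMSO library b and without BIX-01294 replicate 2. So DDIT3 and PPP1R15A rose while TRIB3 fell in the same libraries.

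None of the 7 amino acid synthesis and one-carbon enzymes tested rose past the threshold, and 3 fell (at unadjusted p under 0.05 the count was also 3). The share called, 42.9%, was near the 36.9% of all genes tested. PSAT1, the aminotransferase of the serine pathway, was counted at 0.974, 0.588 and 0.945 CPM with BIX-01294 and at 3.38, 3.10 and 1.72 CPM with DMSO. These are low levels, but the groups did not overlap (log2 fold change −1.70, standard error 0.34, adjusted p = 0.00154). PSPH, the phosphatase of the last step to serine, stood at 6.52, 5.11 and 5.90 CPM against 11.12, 10.17 and 10.12 CPM, a 1.79-fold lower level (log2 fold change −0.84, standard error 0.14, adjusted p = 0.000432). SHMT2, which moves a carbon from serine to folate in mitochondria, fell by a log2 fold change of −0.32 (adjusted p = 0.00844), and the call was lost without DMSO library b (adjusted p = 0.0519). MTHFD2 (−0.13), the next enzyme of that pathway, and GPT2 (0.24), PCK2 (0.08) and CTH (0.15), enzymes of alanine, phosphoenolpyruvate and cysteine metabolism, did not pass the test. ASNS, asparagine synthetase and a marker gene of amino acid limitation, had counts of 2, 1 and 3 with BIX-01294 and 1, 0 and 2 with DMSO. At these depths ASNS mRNA was therefore at or near the floor of 3 counts in NK92MI cells under both conditions, and no fold was computed.

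Of the 5 amino acid transporters, 2 rose and none was called lower (none also at unadjusted p under 0.05), a share of 40% against 36.9% of all genes tested. SLC7A11 (xCT), which imports cystine for glutathione synthesis, was counted at 44.02, 44.79 and 34.07 CPM with BIX-01294 and at 21.1, 20.2 and 25.7 CPM with DMSO (log2 fold change 0.88, standard error 0.12, adjusted p = 9.02e-05). SLC38A2 (SNAT2), an importer of small neutral amino acids that responds to amino acid supply, stood at 671, 718 and 644 CPM against 446, 393 and 424 CPM (log2 fold change 0.69, standard error 0.07, adjusted p = 5.03e-06). Both were higher in each treated library than in any control. SLC7A5 (LAT1), the leucine transporter, was at 46.9, 46.4 and 49.0 CPM against 53.0, 55.3 and 48.9 CPM, overlapping groups that did not differ past the threshold (log2 fold change −0.14, adjusted p = 0.158). The arginine transporter SLC7A1 (−0.08) and the glutamine transporter SLC1A5 (−0.16) were likewise not called. SLC3A2 (CD98), which is no member but forms the shared heavy chain of SLC7A5 and SLC7A11, rose (log2 fold change 1.57, standard error 0.09, adjusted p = 7.16e-08).

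The 4 tRNA synthetases among the members were split, with 2 called higher and 2 lower (18.4% of all genes in each direction). GARS1 fell (log2 fold change −0.39, standard error 0.07, adjusted p = 0.000578) and kept its call in each of 12 alternatives. AARS1 (−0.17, adjusted p = 0.0423) was called lower, and WARS1 (0.17, adjusted p = 0.0469) and SARS1 (0.22, adjusted p = 0.0348) were called higher, all by small amounts. Their calls were lost in 6, 8 and 4 of 12 alternatives, respectively. Of 16 other cytosolic tRNA synthetases, 9 were called lower and 1 higher (18.4% of all genes in each direction), with a median log2 fold change of −0.22 (−0.01 over all genes tested). VARS1 (−0.62, adjusted p = 1.1e-05) and IARS1 (−0.53, adjusted p = 2.11e-05), which charge valine and isoleucine tRNAs, had the smallest p-values.

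All 4 stress sensors had positive log2 fold changes, and 3 were called higher (18.4% of all genes). EIF2AK3 was counted at 111, 108 and 100.4 CPM with BIX-01294 and at 77.0, 71.1 and 75.4 CPM with DMSO (log2 fold change 0.51, standard error 0.07, adjusted p = 6.52e-05). ERN1 stood at 19.5, 19.9 and 16.7 CPM against 9.60, 10.9 and 12.4 CPM, a rise of 1.70-fold (log2 fold change 0.77, standard error 0.12, adjusted p = 0.000321). The treated and control libraries did not overlap for either gene. EIF2AK4 was low, at 6.64, 9.11 and 7.03 CPM against 4.48, 6.02 and 4.14 CPM (log2 fold change 0.64, standard error 0.19, adjusted p = 0.0155). Leaving out DMSO library a or c ended this call, with the largest adjusted p at 0.0745. ATF6, at 122, 118 and 112 CPM against 112, 104.5 and 107 CPM, did not pass the test (log2 fold change 0.12, adjusted p = 0.176).

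In the group of 9 ER folding, degradation and signalling factors, 3 fell and none rose past the threshold (at unadjusted p under 0.05 again 3, all of them lower). The share called, 33.3%, was near the 36.9% of all genes tested, so the count is no result about the group, and single genes are described. XBP1, the substrate of ERN1 and a transcription factor for ER genes, was counted at 31.6, 29.5 and 36.8 CPM with BIX-01294 and at 65.6, 60.3 and 63.8 CPM with DMSO. The treated libraries lay far below the controls, at a 1.94-fold lower level (log2 fold change −0.95, standard error 0.09, adjusted p = 3.2e-06). SDF2L1, an ER protein that works with the chaperone HSPA5, stood at 11.5, 9.82 and 15.8 CPM against 28.9, 29.8 and 27.4 CPM, a 2.33-fold lower level (log2 fold change −1.22, standard error 0.14, adjusted p = 2e-05). PDIA4, a disulphide isomerase, fell slightly (log2 fold change −0.19, adjusted p = 0.0262), and the call was lost in 3 of 12 alternatives. The lectin chaperones CALR (0.14) and CANX (0.07), the degradation factors HERPUD1 (−0.06), SEL1L (0.10) and EDEM1 (0.10) and the membrane-bound transcription factor CREB3L2 (0.09) were not called. So ERN1 mRNA was higher while the mRNA of its substrate was lower in the same libraries.

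**Figure D2:**
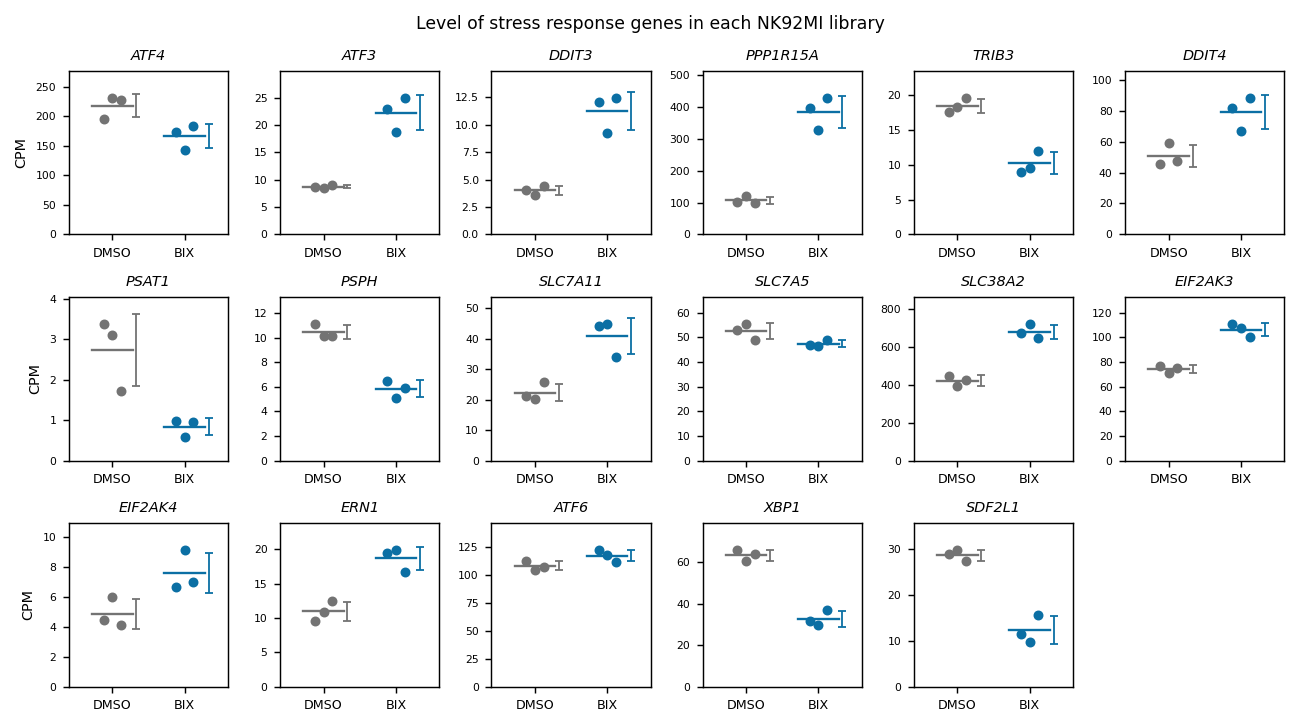
Level in TMM-normalized CPM (y axis, from 0) of 17 members in each NK92MI library, DMSO in grey and BIX-01294 (BIX) in blue, with the mean as a horizontal line and the SD (n = 3) as an error bar beside it. The points of PPP1R15A, ATF3 and DDIT3 with BIX-01294 sit above every control point, those of XBP1, SDF2L1, TRIB3, PSAT1 and PSPH sit below, and those of SLC7A5 and ATF6 overlap with the controls.

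Other genes of these pathways were called in both directions. The eIF2 and ER lists had shares near the 36.9% of all genes tested, whereas the 16 other cytosolic synthetases above had 62.5%. Of 14 other eIF2 pathway genes, 3 were called higher and 2 lower (35.7%). Of 27 other ER chaperone and unfolded protein response genes, 6 were called higher and 4 lower (37%). DNAJB9 (0.68, adjusted p = 3.56e-05), an ER co-chaperone, EDEM3 (0.57, adjusted p = 0.000113), a factor of glycoprotein degradation, and ERO1B (0.69, adjusted p = 0.000178), an ER oxidase, rose on the log2 scale. HSPA5 (BiP), the main chaperone of the ER lumen, fell by a log2 fold change of −0.45 (adjusted p = 0.000164), with MBTPS1 (−0.25, adjusted p = 0.00617), a protease that cleaves ATF6, and DERL3 (−1.63, adjusted p = 0.00718), a degradation factor. DERL3 was low, at 5 to 9 counts a library with BIX-01294 and 15 to 29 with DMSO. Of 7 other ATF4-linked metabolism and stress genes tested, 3 rose and 3 fell (85.7%), among them KLHL24 (1.23, adjusted p = 7e-07) upward and the tRNA exporter XPOT (−0.45, adjusted p = 7.11e-05) downward.

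Compared per length of the annotated exons (GENCODE, GRCh38), the DMSO levels of the members spanned a wide range. CALR (398 CPM per kb), CANX (98.2 CPM per kb), PDIA4 (89.4 CPM per kb) and ATF4 (83.4 CPM per kb) were the highest, and ERN1 (0.573 CPM per kb) and EIF2AK4 (0.407 CPM per kb) the lowest of the members tested. The length is the union of all annotated exons (19153 bases for ERN1) and may exceed the transcripts expressed, so the order depends on it. In mean DMSO CPM without length, PSAT1 was the lowest (2.73 CPM) and ERN1 stood at 10.97 CPM. With BIX-01294, PPP1R15A went from 31.3 to 112 CPM per kb, above ATF4, which went from 83.4 to 63.8 CPM per kb. PPP1R15A lies on chromosome 19 from 48872212 to 48876059 on the plus strand, and ATF4 on chromosome 22 from 39519695 to 39522683 on the plus strand. DDIT3 lies on chromosome 12 from 57516588 to 57521737 and XBP1 on chromosome 22 from 28794555 to 28800597, both on the minus strand. In GRCm38, Slc7a5 lies on chromosome 8 from 121881150 to 121907694 and Asns on chromosome 6 from 7675169 to 7693254, both on the minus strand. The annotation release of the authors is not given, so these positions and lengths may differ from those behind the counts.

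In the mouse KO NK cells, few members moved past the threshold. Asns, Slc7a5 and Eif2ak3 were called lower and no member was called higher. Against 7.43% of the 13189 genes tested that were lower and 4.44% that were higher, 3 of 43 members were lower and 0 higher, a share of 6.98% in either direction against 11.9% of all genes. At an unadjusted p under 0.05, 5 members were higher (15.8% of all genes) and 11 lower (20% of all genes). The thresholds of the study called no gene in this fit, members or others (0% of all genes). DESeq2 called 3 members higher (8.33% of all genes) and 6 lower (15.1%) at an adjusted p under 0.05, and limma-voom called 1 higher (4.67%) and 2 lower (6.76%). The median log2 fold change was −0.07 over the members and 0.01 over all genes tested. Every KO library lay above every WT library for 7 members and below for 11. Over the 13189 genes tested this held for 2521 and 2552.

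Slc7a5, the leucine transporter, was counted at 20.2, 19.8 and 20.7 CPM in KO replicates 1, 2 and 3, and at 46.4, 32.6 and 38.6 CPM in WT replicates 1, 2 and 3. The KO libraries were close to each other and below all WT libraries, at a 1.94-fold lower level (log2 fold change −0.95, standard error 0.13, adjusted p = 0.0239). Asns stood at 0.653, 0.754 and 0.768 CPM against 5.67, 0.931 and 4.06 CPM in the same order. WT replicate 2 was thus near the KO libraries and far from the other WT libraries (log2 fold change −2.30, standard error 0.59, adjusted p = 0.0473). Eif2ak3, the ER sensor kinase, was at 38.3, 38.3 and 41.8 CPM against 48.3, 50.9 and 52.3 CPM, a small decrease with no overlap (log2 fold change −0.36, standard error 0.08, adjusted p = 0.0427). The calls depended on single libraries more than the fold changes did. With each library left out, the log2 fold change of Slc7a5 ranged from −1.07 to −0.81, that of Eif2ak3 from −0.40 to −0.33 and that of Asns from −2.74 to −1.79. Slc7a5 lost its call without KO replicate 2, KO replicate 3 or WT replicate 3 (largest adjusted p 0.131), and Asns and Eif2ak3 lost theirs when any single library other than WT replicate 2 was left out (largest adjusted p 0.16 for both). Asns also lost its call with limma-voom (adjusted p = 0.0947). With WT replicate 2 left out, 9 members were called lower (15.6% of all genes) and 3 higher (10.7%), Asns had a log2 fold change of −2.74 (adjusted p = 0.00207), and Xbp1 had one of −0.61 (adjusted p = 0.0104). Without KO replicate 2 or without KO replicate 3 edgeR called 0 genes in all, and without WT replicate 3 it called 6 higher and 8 lower of 13330, so that the 0 members called in these fits say nothing about the members.

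The mouse transcription factors and effectors were not called. Atf4 was at 256, 227 and 213 CPM in KO and 200.0, 202 and 227 CPM in WT NK cells (log2 fold change 0.15, adjusted p = 0.322). Ddit3 stood at 34.3, 36.9 and 38.4 CPM against 21.4, 31.1 and 28.3 CPM, with each KO library above each WT library (log2 fold change 0.44, adjusted p = 0.0754). Atf3 was at 6.42, 3.15 and 3.62 CPM against 10.4, 5.90 and 8.65 CPM, so that only KO replicate 1 and WT replicate 2 crossed (log2 fold change −0.92, adjusted p = 0.0865). Both Ddit3 and Atf3 passed the threshold with DESeq2 and without WT replicate 2. Ppp1r15a was nearly level, at 56.8, 52.4 and 46.4 CPM against 57.6, 52.7 and 52.7 CPM (log2 fold change −0.07, standard error 0.10, adjusted p = 0.655). Ddit4 was at 113, 90.6 and 131 CPM against 101, 82.0 and 82.6 CPM (log2 fold change 0.33, adjusted p = 0.148). Trib3 stayed under 1 CPM in every library, at 0.707, 0.216 and 0.658 CPM against 0.540, 0.388 and 0.967 CPM (log2 fold change −0.28, standard error 0.55, adjusted p = 0.739). Sesn2 (−0.57, adjusted p = 0.0529), the glutathione-degrading enzyme Chac1 (−1.70, adjusted p = 0.0858) and the secreted glycoprotein Stc2 (1.26, adjusted p = 0.12) had larger log2 fold changes than most members but did not pass, the latter pair at 1.295 CPM or less in every library. Sesn2 was called lower in 6 of 14 alternatives, DESeq2 and the fit without WT replicate 2 among them, and Chac1 in 3, DESeq2 and the fit without KO replicate 1 among them. Atf5 (−0.31), Cebpb (−0.23), Cebpg (0.19) and Nupr1 (−0.27), a stress-induced chromatin factor, were not called either.

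Among the mouse enzymes, transporters and synthetases, Psph was at 20.9, 22.8 and 20.7 CPM in KO and 14.1, 18.7 and 13.9 CPM in WT NK cells, apart but not called (log2 fold change 0.47, adjusted p = 0.0628). It was called higher by DESeq2, by limma-voom and without WT replicate 2 (adjusted p = 0.00899 at the lowest). Psat1, at 23.5, 22.3 and 23.5 CPM against 26.5, 24.7 and 24.9 CPM, differed little (log2 fold change −0.14, adjusted p = 0.302). Phgdh (−0.24), the first enzyme of the serine pathway, Mthfd2 (−0.44), Gpt2 (−0.83), Pck2 (−0.21) and Shmt2 (0.03) were not called. Slc7a11 was low, at 1.36, 0.539 and 0.932 CPM in KO and 2.48, 0.931 and 3.01 CPM in WT NK cells, with WT replicate 2 again among the KO libraries (log2 fold change −1.19, adjusted p = 0.134). Slc38a2 stood at 242, 230 and 223 CPM against 153, 199 and 197 CPM, so that each KO library was above each WT library (log2 fold change 0.34, adjusted p = 0.0805), and it passed the threshold with DESeq2 and without WT replicate 2. Slc1a5 (0.19) and Slc7a1 (0.01) were not called. The synthetases, listed as Aars (0.00), Gars (0.03), Wars (0.14) and Sars (0.13), had log2 fold changes of at most 0.14, and none was called (none also at unadjusted p under 0.05). Among the 16 other cytosolic synthetases, 0 were called by edgeR, and 2 had an unadjusted p under 0.05.

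For the mouse sensors and ER factors, Eif2ak4 was at 25.9, 26.3 and 27.4 CPM in KO and 31.21, 28.04 and 34.65 CPM in WT NK cells (log2 fold change −0.24, adjusted p = 0.144). Atf6 stood at 79.8, 84.7 and 89.1 CPM against 98.9, 90.2 and 105 CPM (log2 fold change −0.21, adjusted p = 0.127). Both had every KO library below every WT library, as did Eif2ak3 and 2552 of all 13189 genes tested. Ern1 overlapped at 83.1, 96.5 and 109 CPM against 70.9, 91.5 and 77.7 CPM (log2 fold change 0.27, adjusted p = 0.184). Xbp1 was at 141, 132 and 123 CPM against 223, 125 and 180.5 CPM, with WT replicate 2 inside the KO range (log2 fold change −0.42, adjusted p = 0.159). Sdf2l1 overlapped fully, at 36.96, 33.56 and 36.19 CPM against 45.0, 31.1 and 33.5 CPM (log2 fold change −0.04, adjusted p = 0.864). Creb3l2 (−0.20), Herpud1 (0.08), Sel1l (0.01), Edem1 (−0.05), Pdia4 (0.02), Calr (0.02) and Canx (−0.13) did not pass, and none of the 9 ER factors had an unadjusted p under 0.05. Of the other pathway genes, Gdf15 (−2.43, adjusted p = 0.0425), a secreted stress cytokine, and Ero1lb (−0.58, adjusted p = 0.0484), the mouse ERO1B, were called lower, and Derl2 (0.38, adjusted p = 0.0459), a degradation factor, and Ppp1r15b (0.30, adjusted p = 0.0495), the constitutive partner of the eIF2α phosphatase, were called higher. Gdf15 was low, at 14, 10 and 8 counts in KO and 102, 18 and 46 counts in WT replicates 1 to 3.

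**Figure D3:**
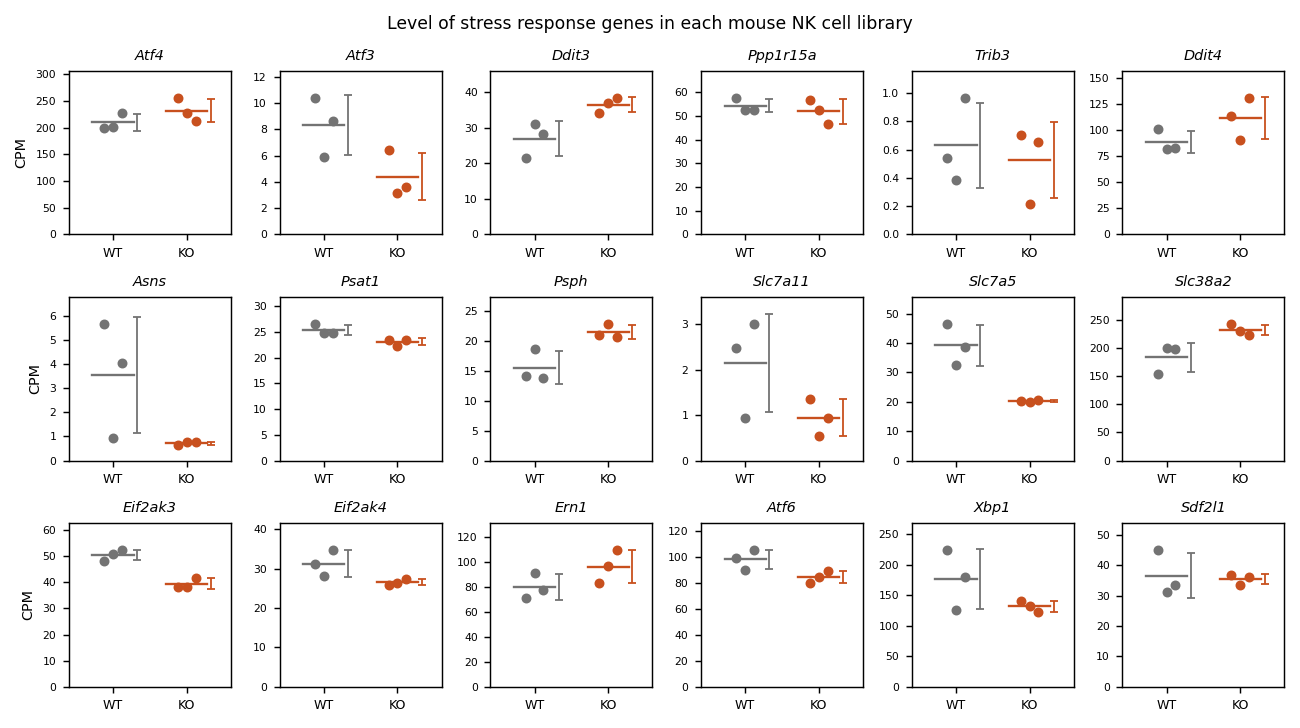
Level in TMM-normalized CPM (y axis, from 0) of 18 members in each mouse NK cell library, WT in grey and KO in orange, with the mean as a horizontal line and the SD (n = 3) as an error bar beside it; points within a group stand in the order of replicates 1, 2 and 3. For Asns, Slc7a11 and Xbp1 the middle grey point, WT replicate 2, lies near the orange points, while for Slc7a5 and Eif2ak3 the KO points are close together below all WT points.

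Markers of other cells moved with the mouse genotype, and their part in these results was not tested. In bulk samples, fewer cells of a type and less RNA per cell cannot be told apart. Of 11 pancreatic acinar markers tested, 11 were called lower in KO libraries (7.43% of all genes). Their summed level was 15.5 to 23.4 CPM in KO and 274, 442 and 1632 CPM in WT replicates 1 to 3. The 4 plasma cell markers tested, a cell type rich in Xbp1, all had negative log2 fold changes with none called by edgeR, and their sums were 119, 38.0 and 46.3 CPM in KO and 622, 87.4 and 269 CPM in WT NK cells. WT replicate 2 thus had the lowest plasma cell sum of the WT libraries, as it had the lowest levels of Asns, Slc7a5, Slc7a11 and Xbp1. Not all members followed this order. Among the WT libraries Eif2ak3 was lowest in replicate 1 (48.3 CPM, against 50.9 and 52.3 CPM in replicates 2 and 3), and Psph and Ddit3 were highest in replicate 2. Macrophage and monocyte markers summed to 1662 to 2869 CPM in KO and 2742 to 6860 CPM in WT libraries, and again WT replicate 2 was the lowest WT library. Of these 10 markers, 4 were called lower (7.43% of all genes) and 1 higher (4.44%). Sums of B cell (855, 534 and 1547 CPM in WT replicates 1 to 3), neutrophil (208, 69.5 and 752 CPM) and T cell markers (246, 147 and 215 CPM) were also lowest in WT replicate 2. The order differed for dendritic cell markers, whose sum was highest in WT replicate 2 (1405 CPM, against 1283 and 1075 CPM in WT replicates 1 and 3). WT replicate 2 was not the lowest for erythroid and platelet markers (1626 CPM, against 1552 and 2287 CPM), nor for the acinar markers above. By edgeR, 6 of 9 erythroid and platelet markers, 3 of 8 neutrophil markers and 0 of 8 B cell markers were called lower in KO libraries (7.43% of all genes). All 8 B cell markers had negative log2 fold changes nonetheless. Of 11 NK identity markers tested in mouse, 7 were called higher (4.44% of all genes). Their sums were 9812 to 11500.0 CPM in KO libraries and 5182, 8757 and 5465 CPM in WT replicates 1 to 3, the highest WT sum being that of replicate 2. In NK92MI cells 8 of 14 NK identity markers were called higher and 3 lower (18.4% of all genes in each direction). Their sums were 8245 to 10500.0 CPM with BIX-01294 and 6392 to 6947 CPM with DMSO. A further property sets the mouse counts apart. Between 87.8% and 90.6% of mouse genes with 1 to 10 counts had an even count, against 43.0% to 45.2% of such human genes. With mouse counts divided by 2, an alternative chosen after seeing the data, Asns, Slc7a5 and Eif2ak3 kept their calls and Sesn2 was called lower as well.

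The effect of the inhibitor in NK92MI cells was compared with that of the knockout in mouse NK cells in a joint fit over 8810 genes matched by symbol. Of the 38 members in it, 16 had effects that differed, against 30.9% of all genes, 9 of them with a larger value with BIX-01294 and 7 with a smaller one. The sign of the 2 effects was the same for 16 members and opposite for 22. Some of these signs belong to effects near 0, such as SLC7A1 (opposite) and SEL1L (same), both at 0.01 in mouse. The share over all matched genes is not given here, so the counts are no result about the members. The comparison sets a cell line under a drug against sorted NK cells of knockout mice, so species, cell type and kind of intervention cannot be told apart.

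**Figure D4:**
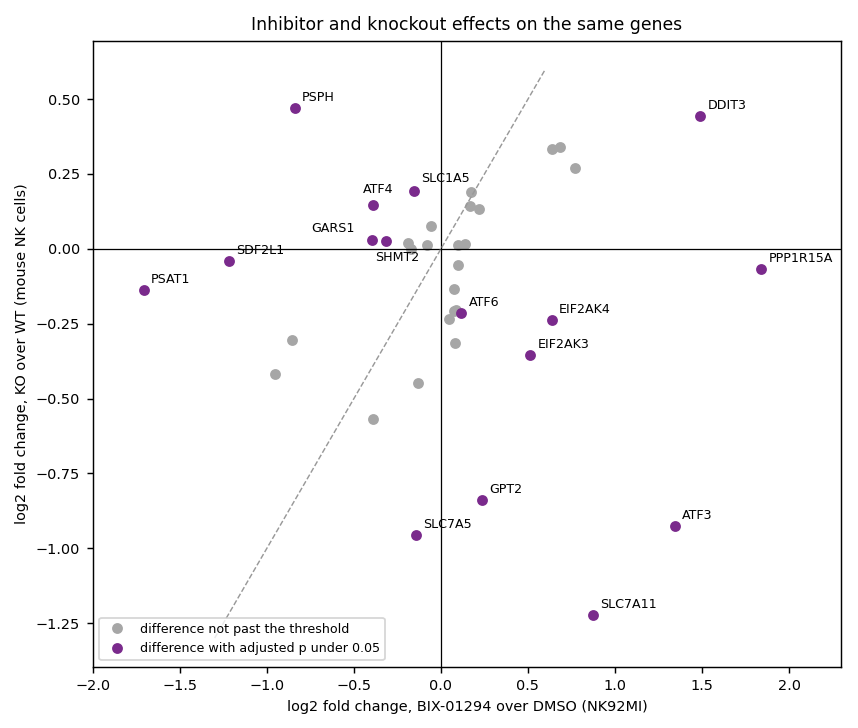
Log2 fold change with BIX-01294 over DMSO in NK92MI cells (x axis) against that of KO over WT in mouse NK cells (y axis) for 38 members, from the joint fit, with members whose difference had an adjusted p under 0.05 in purple and named and a dashed line where both effects are equal. PPP1R15A, ATF3 and SLC7A11 lie far to the right and below the line, and PSAT1, SDF2L1 and PSPH lie to the left and above it.

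ATF3 had the widest gap, at 1.34 with BIX-01294 and −0.93 in KO NK cells on the log2 scale of the joint fit (difference 2.27, standard error 0.35, adjusted p = 0.000467). SLC7A11 followed at 0.88 and −1.22 (difference 2.10, standard error 0.44, adjusted p = 0.00326) and PPP1R15A at 1.84 and −0.07 (difference 1.91, standard error 0.15, adjusted p = 4.17e-06). The joint fit shares 1 estimate of spread per gene between both species, so its errors can be too small where mouse libraries vary more. For SLC7A11 the error of the difference was below that of the mouse effect fitted alone (0.50). PSAT1 (difference −1.57, adjusted p = 0.00227), PSPH (−1.31, adjusted p = 0.000441) and SDF2L1 (−1.18, adjusted p = 0.00185) differed in the opposite sense. DDIT3 was positive in both systems, at 1.49 and 0.44, and still differed (1.05, adjusted p = 0.00335), and ATF4 differed at −0.39 and 0.15 (−0.53, adjusted p = 0.0147). The sensors EIF2AK3 (0.87, adjusted p = 7.81e-05), EIF2AK4 (0.88, adjusted p = 0.00785) and ATF6 (0.33, adjusted p = 0.0293) had larger values with the inhibitor, and for ERN1 the difference of 0.50 did not pass (adjusted p = 0.0534). XBP1 was negative in both, at −0.95 and −0.42, with a difference of −0.54 (standard error 0.22, adjusted p = 0.0793), and TRIB3, at −0.86 and −0.30, had a difference of −0.55 (standard error 0.47, adjusted p = 0.392) that was poorly measured. SLC38A2 (0.35, standard error 0.14, adjusted p = 0.0714) and DDIT4 (0.31, standard error 0.20, adjusted p = 0.269) were positive in both without a difference past the threshold.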

How the data were processed

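The counts deposited by the authors are raw reads per gene symbol. The authors trimmed reads with fastp (0.23.4), used STAR (2.7.11b) to align them to GRCm38/mm10 (mouse) and GRCh38/hg38 (human), and took counts from HTSeq (2.0.3); the annotation release and the strand setting are not given in the sources used here. Groups were taken from the sample titles. The members and lists were chosen with earlier results of these data known.

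From the counts, each species was fitted alone in edgeR (4.0.16, R 4.3.3) with TMM normalization, filterByExpr and the quasi-likelihood test with Benjamini-Hochberg adjustment over all genes tested. No column was left unused. The difference between both comparisons was tested in a joint edgeR fit of genes matched by symbol, with effective library sizes set within each species. The spread of each gene was estimated over both species together. Members with an adjusted p under 0.05 and an absolute log2 fold change over 0.5 in either comparison, and ATF4, DDIT3, ASNS, TRIB3, XBP1, EIF2AK3, EIF2AK4, ERN1 and ATF6, were described by library, and the other members by role. Of the other pathway genes up to 3 per direction with the smallest adjusted p were named in each comparison. EDEM3, ERO1B, HSPA5, MBTPS1 and DERL3, and PPP1R15B in NK92MI cells, fall outside this rule and were chosen after their values were seen. A gene of the lists is not reported here by name. Symbols occurring more than once (15 human, 41 mouse) were kept as separate genes.

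The alternatives tried were library totals or DESeq2's size factors as scaling, a filter at a mean CPM of 1 or none, DESeq2 (1.42.0) and limma-voom (limma 3.58.1) as tests, the thresholds of the study, blocking on replicate number, leaving out single libraries and, added after seeing the data, mouse counts divided by 2. The fits were tested on simulated data. Intervals and the floor of 3 counts cover counting error only.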

Additional observations from a re-analysis of the deposited data

Results flagged for a closer look

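The effect of BIX-01294 in NK92MI cells differed from the effect of the knockout in mouse NK cells for 16 members by the test of the difference itself in the joint edgeR fit (2720 of 8810 genes, 30.9%, did so). The differences, inhibitor minus knockout on the log2 scale, were 2.27 for ATF3, 1.91 for PPP1R15A and 1.05 for DDIT3. The transporters SLC7A11 and SLC7A5 differed by 2.10 and 0.81, and the aminotransferase GPT2 by 1.08. Among the sensors the differences were 0.88 for EIF2AK4, 0.87 for EIF2AK3 and 0.33 for ATF6. Negative differences were found for PSAT1 (−1.57), PSPH (−1.31), SDF2L1 (−1.18), ATF4 (−0.53), GARS1 (−0.42), SLC1A5 (−0.35) and SHMT2 (−0.34). PSAT1 in NK92MI cells and Slc7a11 and Gpt2 in mouse NK cells stood at 3.38 CPM or less in each library. Species, cell type and kind of intervention cannot be told apart in this comparison.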

How the results depend on the processing

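Across 12 alternatives in NK92MI cells and 14 in mouse NK cells, 425 of 468 member values and 527 of 599 kept their direction and their side of the threshold, respectively. Members that stayed uncalled count as kept, and most mouse members were uncalled. Of the members called, 15 of 23 in NK92MI cells and 0 of 3 in mouse NK cells kept their call in every alternative. In NK92MI cells the thresholds of the study left 5 members lower (5.43% of all genes). With each library left out, between 8 and 12 members were higher and between 7 (without DMSO library b) and 12 lower. Over all of at least 13032 genes tested, these fits called 1850 to 2581 higher and 1641 to 2440 lower. In mouse NK cells DESeq2 called 3 members higher and 6 lower, limma-voom called 1 higher, and the thresholds of the study called 0 lower in edgeR. The same thresholds called 3 members lower in DESeq2, the tool of the study, and 3 lower and 1 higher in edgeR without WT replicate 2. Over all genes, in either direction, they called 1495 of 13189 and 1163 of 13411, respectively. The replicate number as a block called 2 members higher and 7 lower, and 1292 and 1930 of all 13189 genes. No label states that the numbers pair the samples. The correlations of same-numbered KO and WT libraries were 0.281, 0.352 and −0.188, and those of differently numbered libraries ranged from −0.436 to 0.284. With 3 libraries a group, these values cannot decide whether the samples were paired. For NK92MI cells no paired analysis was possible because the control columns carry no replicate numbers. With each mouse library left out, between 0 and 3 members were higher and between 0 and 9 lower, both the highest without WT replicate 2. Over all genes these fits called 0 to 1433 higher and 0 to 2097 lower, again the most without WT replicate 2 (of 13411). The median log2 fold change of the members ranged from −0.151 (without WT replicate 2) to −0.0074 (without WT replicate 1). For the members whose 2 effects differ, the count ranged from 12 to 17 with a library left out and was 16 with either other scaling and 19 from separate fits. Over all mouse genes, edgeR called 585 higher and 980 lower and 0 by the thresholds of the study, against 1098, 1989 and 1495 by DESeq2. The causes were not tested.

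Values near 0 changed sign without any call. Aars in mouse was −0.0107 with DESeq2's size factors, −0.0098 with a mean CPM of at least 1, −0.0108 with DESeq2, −0.0036 with limma-voom, −0.0038 with the block and −0.0164 with counts divided by 2. With counts divided by 2, which was chosen after seeing the data, Slc7a1 was −0.0036, Sel1l −0.0042 and Calr −0.0015. With each library left out, ATF5 ranged from −0.0141 to 0.2054, CEBPB from −0.066 to 0.2372, CREB3L2 from −0.0427 to 0.1974 and HERPUD1 from −0.1465 to 0.0102 in NK92MI cells. In mouse NK cells Trib3 ranged from −0.5534 to 0.1638, Ppp1r15a from −0.1423 to 0.0076, Shmt2 from −0.0126 to 0.0543, Slc7a1 from −0.0689 to 0.0849, Aars from −0.0742 to 0.0653, Gars from −0.0135 to 0.0664, Sel1l from −0.0606 to 0.0675, Edem1 from −0.1631 to 0.0166, Sdf2l1 from −0.139 to 0.1392, Pdia4 from −0.0466 to 0.106 and Calr from −0.0928 to 0.1754.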
